A study of Mus musculus with 15 samples.

Results

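The immunoglobulin chain genes were read in RNA sequencing libraries of small intestinal macrophages and blood monocytes. They comprise every gene whose symbol starts with Ighv, Ighg, Igha, Ighm, Ighd, Igkv, Igkc, Iglv or Iglc, without Ighmbp2, together with Jchain. Of 19456 genes in the count table, 218 met this rule, namely 108 heavy chain variable genes (Ighv), 95 kappa variable genes (Igkv), 3 lambda variable genes (Iglv), 7 heavy and 4 light chain constant regions, and Jchain. 12 of the 218 are annotated as pseudogenes. The rule used gene symbols only. All libraries came from wild-type adult male C57BL/6 mice, for which the labels name no treatment, and 4 populations were sorted by flow cytometry: Ly6Chi blood monocytes with 3 libraries, and small intestinal macrophages that lacked both surface proteins (Tim-4-CD4-), carried CD4 alone (Tim-4-CD4+) or carried both (Tim-4+CD4+), with 4 libraries each. 3 mice were pooled for a library, and 4 for monocyte replicate 2. The macrophage gate required CD45, CD11b and CD64 and left out cells with TCRβ, Siglec F, Ly6G, Ly6C or B220, the last of these being a B cell surface protein. Replicates are numbered as in the sample titles.

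Total counts on genes ran from 39388763 to 151510641 per macrophage library and from 48739371 to 139410518 per monocyte library. Levels are given as CPM, which are counts per 1e6 of a library size scaled with the trimmed mean of M-values (TMM). 3 counts, the most that a count of 0 allows, are worth 0.0203 to 0.0776 CPM in these libraries, an amount that covers counting error only. The genes of the sorted proteins matched the labels. Timd4 averaged 355 CPM in Tim-4+CD4+ macrophages, against 1.11 CPM in the Tim-4-CD4- subset and 1.70 CPM in the Tim-4-CD4+ subset, Cd4 averaged 816 and 531 CPM in the CD4+ subsets against 22.9, and Ly6c2 averaged 1092 CPM in monocytes. All 10 macrophage markers examined averaged at least 1 CPM in every macrophage subset.

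An immunoglobulin is made of paired heavy and light chains, each with a variable and a constant region. A developing B cell joins 1 variable gene to diversity and joining segments on the heavy chain and 1 to a joining segment on the kappa or lambda chain, so that the variable genes transcribed in a tissue reflect which B cell clones are there. The constant region gives the class: Ighm and Ighd encode IgM and IgD of naive B cells, Ighg genes the IgG classes, and Igha the IgA that plasma cells of the gut lining secrete as dimers held together by the J chain.

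3 pairs of variable exons are shown as examples of how alike the variable genes of 1 locus can be. Reads were counted only where they mapped to 1 place. The sequences are those of the reference genome (GRCm38, GENCODE M21), read 5′ to 3′ on the coding strand, and not those of the rearranged transcripts, which can differ by somatic mutation. Each pair is a gene with its closest relative of equal exon length, and capitals mark the bases at which the 2 differ. At most the first 300 bases of an exon are shown. Ighv1-26, the heavy chain variable gene with the highest mean level in macrophages (shown from chr12:114788377-114788676, minus strand), differed from Ighv1-18 (chr12:114682637-114682936, minus strand) at 8 bases of the 305-base exon.
Ighv1-26: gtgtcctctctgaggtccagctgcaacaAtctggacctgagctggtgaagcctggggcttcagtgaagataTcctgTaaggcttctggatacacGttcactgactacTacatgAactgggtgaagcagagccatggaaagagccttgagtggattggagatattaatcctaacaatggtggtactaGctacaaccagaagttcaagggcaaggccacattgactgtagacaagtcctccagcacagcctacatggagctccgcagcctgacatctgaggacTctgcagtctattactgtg
Ighv1-18: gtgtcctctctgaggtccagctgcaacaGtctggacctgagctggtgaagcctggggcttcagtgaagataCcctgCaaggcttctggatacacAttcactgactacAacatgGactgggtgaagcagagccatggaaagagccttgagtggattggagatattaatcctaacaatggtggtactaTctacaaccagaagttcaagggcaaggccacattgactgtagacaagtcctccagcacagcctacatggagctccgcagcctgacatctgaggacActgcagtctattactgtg

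Igkv6-23, the kappa variable gene with the highest mean level (chr6:70260409-70260706, minus strand), differed from Igkv6-13 (chr6:70457501-70457798, minus strand) at 12 bases of the 298-base exon.
Igkv6-23: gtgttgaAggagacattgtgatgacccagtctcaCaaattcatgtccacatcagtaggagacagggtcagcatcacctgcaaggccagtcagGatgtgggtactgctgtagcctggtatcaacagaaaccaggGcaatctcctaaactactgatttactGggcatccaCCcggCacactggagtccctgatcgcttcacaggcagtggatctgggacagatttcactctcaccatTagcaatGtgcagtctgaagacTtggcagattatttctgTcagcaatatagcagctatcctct
Igkv6-13: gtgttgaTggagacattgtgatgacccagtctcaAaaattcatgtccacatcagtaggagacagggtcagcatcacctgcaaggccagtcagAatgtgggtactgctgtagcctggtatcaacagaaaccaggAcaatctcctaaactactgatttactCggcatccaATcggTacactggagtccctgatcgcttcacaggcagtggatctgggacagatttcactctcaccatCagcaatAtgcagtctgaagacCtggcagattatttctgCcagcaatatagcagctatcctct

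Ighv1-22, the gene called higher in the Tim-4-CD4+ subset (chr12:114746278-114746577, minus strand), differed from Ighv1-34 (chr12:114851195-114851494, minus strand) at 10 bases of the 305-base exon.
Ighv1-22: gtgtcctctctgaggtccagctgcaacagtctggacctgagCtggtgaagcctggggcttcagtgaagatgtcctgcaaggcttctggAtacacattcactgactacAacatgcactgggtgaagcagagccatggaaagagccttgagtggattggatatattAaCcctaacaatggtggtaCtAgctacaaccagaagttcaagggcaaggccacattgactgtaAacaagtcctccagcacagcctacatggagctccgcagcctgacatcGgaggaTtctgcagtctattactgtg
Ighv1-34: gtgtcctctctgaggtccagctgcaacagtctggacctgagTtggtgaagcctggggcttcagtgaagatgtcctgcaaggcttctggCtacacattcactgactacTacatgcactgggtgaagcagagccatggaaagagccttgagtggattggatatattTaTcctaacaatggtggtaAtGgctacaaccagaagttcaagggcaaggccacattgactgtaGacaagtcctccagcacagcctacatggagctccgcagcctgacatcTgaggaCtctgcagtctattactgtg

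Of all 65-base stretches along the exons of these genes, the length of 1 read, 74.6% in Ighv1-26, 76.1% in Igkv6-23 and 95.1% in Ighv1-22 occurred in no transcript of another annotated gene. The gene that shared most such stretches with each was not the relative printed beside it. It was Ighv1-34 for Ighv1-26 (55 stretches), Igkv6-25 for Igkv6-23 (59) and Ighv1-18 for Ighv1-22 (14). The median over the 206 variable genes was 89.0%, with 53 genes fully unique and 11 below 50%. Igha, Igkc, Ighm, Ighd, Ighg1 and Iglc1 were fully unique. These unique parts are for single reads, whereas the libraries were read in pairs, for which the unique part was not computed. Levels of the variable genes are levels of their uniquely mapped part. Reads of 1 variable gene can be lost or credited to a close relative. The constant regions named as fully unique shared no such stretch with another gene.

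The first question was how the immunoglobulin genes differed between tissue macrophages and the blood monocytes that were sequenced beside them. Igha, Igkc and Jchain, which are the chains of secreted IgA, were at 189 CPM or more in every macrophage library and at 1.89 CPM or less in monocytes. Ighm was at a similar level in both, and it made up nearly all immunoglobulin reads of the monocytes. The summed level of the 218 genes was 5259, 6953, 7312 and 4988 CPM in Tim-4-CD4-, 3977, 5406, 7609 and 6076 CPM in Tim-4-CD4+, and 8869, 5511, 6347 and 3934 CPM in Tim-4+CD4+ macrophages (replicates 1 to 4), against 253, 274 and 264 CPM in monocytes. Without Ighm and Ighd, the monocyte sums fell to between 3.01 and 3.94 CPM. Immunoglobulin genes thus took 0.399 to 0.874% of all counts in macrophage libraries and 0.0256 to 0.0300% in monocyte libraries. In such bulk libraries, fewer cells of a type and less RNA per cell cannot be told apart.

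Igha (chr12:113254830-113260236, minus strand) was at 2487, 3472, 3410 and 2282 CPM in Tim-4-CD4- macrophages, at 1703, 2497, 3759 and 2775 CPM in Tim-4-CD4+ macrophages, and at 4667, 2521, 2995 and 1814 CPM in Tim-4+CD4+ macrophages. In the 3 monocyte libraries it was at 1.89, 1.22 and 1.47 CPM. No macrophage library came near the monocytes, and the macrophage subsets overlapped each other throughout. By edgeR's quasi-likelihood test with Benjamini-Hochberg adjustment, Igha was 1892-fold higher in Tim-4-CD4- (log2 fold change 10.89 ± 0.46 SE, adjusted p = 2.7e-12), 1743-fold higher in Tim-4-CD4+ and 1948-fold higher in Tim-4+CD4+ macrophages than in monocytes. Igkc, the constant region of kappa light chains (chr6:70726435-70726966, plus strand), was at 1129, 1555, 1694 and 1193 CPM in Tim-4-CD4-, 907, 1284, 1763 and 1426 CPM in Tim-4-CD4+, and 2063, 1303, 1476 and 854 CPM in Tim-4+CD4+ macrophages against 1.13, 0.86 and 1.10 CPM in monocytes. It was higher 1358-fold, 1311-fold and 1388-fold in the subsets as ordered here, again with no macrophage library near the monocytes. Jchain (chr5:88519809-88527891, minus strand), which links IgA and IgM into polymers, was at 246, 333, 369 and 239 CPM in Tim-4-CD4-, 217, 275, 361 and 316 CPM in Tim-4-CD4+, and 351, 273, 307 and 189 CPM in Tim-4+CD4+ macrophages, and at 0.21, 0.22 and 0.09 CPM in monocytes. Its fold over monocytes was 1563, 1538 and 1474 in the same order of subsets.

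Ighm (chr12:113418558-113422730, minus strand) behaved otherwise. It stood at 249, 271 and 261 CPM in monocytes, and at 361, 292, 309 and 342 CPM in Tim-4-CD4-, 297, 294, 280 and 316 CPM in Tim-4-CD4+, and 376, 304, 252 and 244 CPM in Tim-4+CD4+ macrophages. The Tim-4+CD4+ libraries lay on both sides of the monocytes, and the other subsets lay just above them. The difference from monocytes passed the threshold in Tim-4-CD4- macrophages (log2 fold change 0.33, 95% interval 0.05 to 0.60, edgeR adjusted p = 0.034) and not in Tim-4-CD4+ (0.19, -0.08 to 0.46, adjusted p = 0.19) or Tim-4+CD4+ macrophages (0.18, -0.09 to 0.45, adjusted p = 0.23). The call in Tim-4-CD4- macrophages was lost without monocyte replicate 1 (adjusted p = 0.086) or 3 (0.064), or without Tim-4-CD4- replicate 1 (0.085) or 4 (0.068). The monocyte libraries held 14128 to 35428 heavy chain constant counts, of which 99.3 to 99.5% per kb of exon were Ighm, but only 67, 42 and 17 Ighv counts and 30, 29 and 20 Igkv counts. The ratio of summed Ighv counts to Ighm counts was 0.0012 to 0.0019 in monocytes and 1.28 to 2.39 in macrophages, so the Ighm reads of monocytes came with almost no variable gene reads. The ratio of summed Ighv counts to Igha counts was 0.215 to 0.336 in monocytes and 0.143 to 0.231 in macrophages. Which constant region the Ighv reads of macrophages belong to cannot be told from these ratios. These ratios are of counts not divided by length, which is the same in all libraries. A single variable gene, the pseudogene Ighv1-41, which was picked out after its values were seen, had 14, 17 and 4 of these monocyte counts and 0 counts in all 12 macrophage libraries. It was the only member with counts in monocytes and none in macrophages, and it fell below the filter on low counts and was not tested.

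Ighd, the IgD constant region of naive B cells, had 118 counts over the 3 monocyte libraries. It was at 0.30, 0.53 and 0.39 CPM there and at 3.31 to 8.16 CPM in macrophages, and it was 12.4-fold higher in Tim-4-CD4- macrophages, 10.9-fold in the Tim-4-CD4+ subset and 13.9-fold in the Tim-4+CD4+ subset (log2 fold changes 3.63 ± 0.34, 3.45 ± 0.33 and 3.79 ± 0.34 SE). The remaining constant regions had 0 to 2 counts over all 3 monocyte libraries, and no fold is given for them. Ighg2b, the most abundant of the IgG regions, ran from 2.98 to 25.8 CPM in macrophages, with the highest value in Tim-4-CD4- replicate 3. Ighg1 (0.03 to 0.86 CPM), Ighg2c (0.05 to 1.27 CPM) and Ighg3 (0 to 0.44 CPM) were near the floor in several macrophage libraries. Ighg3 was at 0 in 4 of the 12, and its calls against monocytes were lost without any 1 of the monocyte libraries (adjusted p from 0.055 to 0.097). Of the lambda constant regions, Iglc1 was at 9.03 to 47.7 CPM, Iglc2 at 4.35 to 9.38 CPM and Iglc3 at 0.81 to 3.13 CPM in macrophages.

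**Figure D1:**
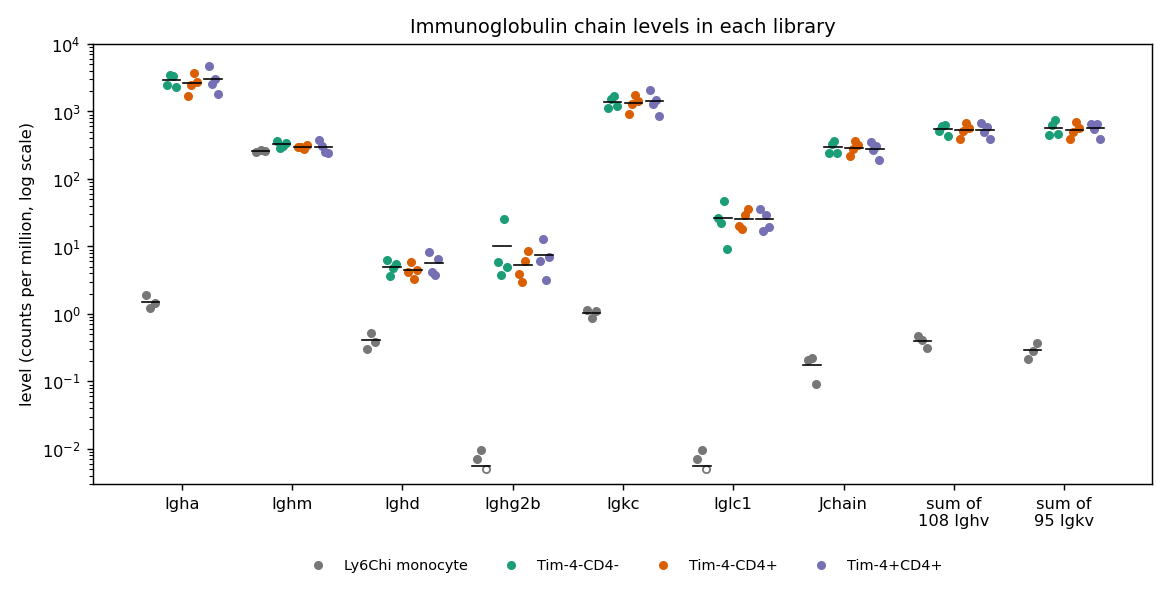
Level of 7 constant region and J chain genes and the summed Ighv and Igkv genes in each of 15 libraries (CPM, log scale), with the 4 populations in colour, a bar at each mean and open circles for libraries with 0 counts. Igha is at 1703 to 4667 CPM in macrophages and at most 1.89 CPM in monocytes, whereas Ighm is at 244 to 376 CPM in macrophages and 249 to 271 CPM in monocytes.

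The variable genes were near absent from monocytes. Their summed level was 0.47, 0.41 and 0.32 CPM for Ighv and 0.21, 0.28 and 0.37 CPM for Igkv in the 3 monocyte libraries. In macrophages, Ighv sums ran from 387 to 669 CPM and Igkv sums from 385 to 751 CPM. 146 of the 218 members had no count in any monocyte library, and 115 had at least 1 count in each of the 12 macrophage libraries. The filter on low counts kept 177 members, among them 83 Ighv and 79 Igkv, and left 41 untested. The untested member with the highest single value was Ighv8-5, at 4.25 CPM in 1 library. Of the 177, 169 were called higher in Tim-4-CD4- macrophages, 167 in the Tim-4-CD4+ subset and 170 in the Tim-4+CD4+ subset than in monocytes and 0 were called lower, where 37.3%, 39.1% and 39.5% of all 15802 genes tested were called higher. 106 of the 177 were at 0 in all monocyte libraries and passed the filter through macrophages alone, so these had to differ and the counts carry no further weight. The members tested and not called in Tim-4-CD4- macrophages were the variable genes Ighv1-2, Ighv1-37, Ighv13-2, Ighv2-9, Ighv3-5, Igkv14-126, Igkv4-62 and Igkv9-123, all of them low. Ighm was among those not called in the other subsets.

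8 joining segments of the heavy and kappa loci, which the symbol rule does not include, summed to 0.03 to 0.07 CPM in monocytes and 19.1 to 43.7 CPM in macrophages, and all 8 were called higher in each subset. Igkj1, Igkj2 and Igkj4 were at 0 in all monocyte libraries and passed the filter through macrophages alone. The share of all genes called higher was 37.3%, 39.1% and 39.5% in the subsets, in the order used above. Markers of B cells were also higher in macrophages than in monocytes, whereas those of plasma cells went both ways. All 11 B cell markers examined were called higher in each macrophage subset than in monocytes, and their summed level was 13.0 to 14.7 CPM in monocytes and 164 to 390 CPM in macrophages. 2 genes made up most of that sum, Cd22 at 117 to 313 CPM and Cd79b at 30.3 to 61.5 CPM. Cd79a, a signalling chain of the B cell receptor, was at 2.91 to 5.97 CPM in macrophages and at 0.10 CPM or less in monocytes. Cr2 was at 0 in all monocyte libraries and passed the filter through macrophages alone.

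Of 12 plasma cell markers, 8 were called higher and 4 lower in each macrophage subset than in monocytes. Of all genes tested, 37.3%, 39.1% and 39.5% were called higher and 28.1%, 30.7% and 31.3% lower in the subsets, in the order used above. The summed level of the 12 was 646 to 720 CPM in monocytes and 649 to 850 CPM in macrophages. Mzb1, a chaperone for IgM and IgA assembly, was at 2.84 to 10.7 CPM in macrophages and 0.02 CPM or less in monocytes. Pou2af1, a coactivator of immunoglobulin promoters, was at 5.34 to 13.2 CPM against 0.02 CPM or less, and Tnfrsf17, the survival receptor BCMA, was at 1.17 to 4.50 CPM against 0.01 CPM or less. Derl3, of the pathway that degrades misfolded proteins of the endoplasmic reticulum, was at 3.11 to 9.98 CPM against 0.01 to 0.07 CPM. Eaf2 (0.62 to 1.60 against 0.04 to 0.16 CPM) and Fkbp11 (0.15 to 0.91 against 0 to 0.09 CPM) were low in macrophages as well. Sdc1, encoding CD138, was at 3.83 to 9.79 CPM in macrophages and 1.48 to 2.81 CPM in monocytes. Prdm1, a regulator that macrophages also use, was higher (212 to 438 against 16.9 to 31.9 CPM), and Xbp1, Irf4, Txndc5 and Tnfrsf13b were called lower. Epithelial markers (10 genes) summed to 35.1 to 50.3 CPM in monocytes and 25.0 to 64.2 CPM in macrophages, with Lyz1 the largest, and T cell markers (8 genes) summed to 0.22 to 0.54 and 3.57 to 13.8 CPM. Despite the similar sums, 7, 8 and 8 epithelial markers were called higher in the subsets than in monocytes, in the same order. Among these, Epcam, Fabp2, Defa24 and, in the CD4+ subsets, Alpi were at 0 in all monocyte libraries. They passed the filter through macrophages alone. Lyz1 was called lower in both CD4+ subsets. For T cell markers, 7, 8 and 8 were called higher and 0 lower. The part of B cells or plasma cells in the immunoglobulin levels was not tested.

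The second question was whether the macrophage subsets, defined by Tim-4 and CD4, differed from each other. The constant regions and Jchain did not pass the threshold between any pair of subsets, and the values above show the libraries of all subsets interleaved. The log2 fold change of Igha was -0.12 in Tim-4-CD4+ over Tim-4-CD4- macrophages (95% interval -0.67 to 0.43), 0.04 in Tim-4+CD4+ over Tim-4-CD4- macrophages (-0.51 to 0.59) and 0.16 in Tim-4+CD4+ over Tim-4-CD4+ macrophages (-0.39 to 0.71). Jchain differed by -0.02, -0.08 and -0.06 in the same order, and its widest bounds were -0.50 and 0.39. Ighm differed by -0.14, -0.15 and -0.01, with bounds from -0.40 to 0.24. Without Tim-4+CD4+ replicate 1, the library with the highest Ighm level, Ighm was lower in Tim-4+CD4+ than in Tim-4-CD4- macrophages (log2 fold change -0.29, edgeR adjusted p = 0.035).

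1 of 177 members was called in Tim-4-CD4+ over Tim-4-CD4- macrophages, 1 in Tim-4+CD4+ over Tim-4-CD4- macrophages and 0 in Tim-4+CD4+ over Tim-4-CD4+ macrophages. Of all genes tested, 10.1%, 23.1% and 3.41% were called in these comparisons. Without adjustment, edgeR gave a p under 0.05 for 7, 7 and 5 members, and DESeq2 called 1 member, Ighv1-2, in the last comparison. The members varied more than other genes, since their median standard error of the log2 fold change was 0.82, 0.82 and 0.81 against 0.16 over all genes in each comparison. Their median absolute log2 fold change was 0.47, 0.34 and 0.39, against 0.21, 0.28 and 0.18 over all genes.

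Ighv1-22 was the member called higher in Tim-4-CD4+ than in Tim-4-CD4- macrophages. It was at 3.43, 2.45, 7.07 and 3.31 CPM in Tim-4-CD4-, 9.64, 7.76, 8.30 and 20.7 CPM in Tim-4-CD4+, and 5.83, 6.01, 4.07 and 8.84 CPM in Tim-4+CD4+ macrophages. The Tim-4-CD4+ libraries all lay above the Tim-4-CD4- libraries, with the gap between 7.07 and 7.76 CPM, and replicate 4 stood well above the other Tim-4-CD4+ libraries. The log2 fold change was 1.52 ± 0.37 SE (adjusted p = 0.013), and without Tim-4-CD4+ replicate 4 it was 1.08 with an adjusted p of 0.068. Ighv1-34, the relative printed beside it, was at 6.55, 4.83, 2.61 and 7.09 CPM in Tim-4-CD4- and at 2.69, 8.85, 8.08 and 2.86 CPM in Tim-4-CD4+ macrophages, values that overlap.

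Ighv1-2, annotated as a variable pseudogene (chr12:114469075-114469535, minus strand), was called higher in Tim-4+CD4+ than in Tim-4-CD4- macrophages. It was at 0.02, 0.12, 0 and 0.13 CPM in Tim-4-CD4- and at 0.37, 0.06, 5.61 and 1.66 CPM in Tim-4+CD4+ macrophages, so that the groups overlap and replicates 3 and 4 are the high ones. In Tim-4-CD4+ macrophages it was at 0.20, 0.10, 0.14 and 0.11 CPM. The log2 fold change over Tim-4-CD4- macrophages was 4.84 ± 1.17 SE (adjusted p = 0.0075), and 3.36 with an adjusted p of 0.032 without Tim-4+CD4+ replicate 3. Its mean over all libraries was under 1 CPM. A filter at that mean removed it, and a fit of only these populations, in which it fell below the filter on low counts, called 0 members.

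**Figure D2:**
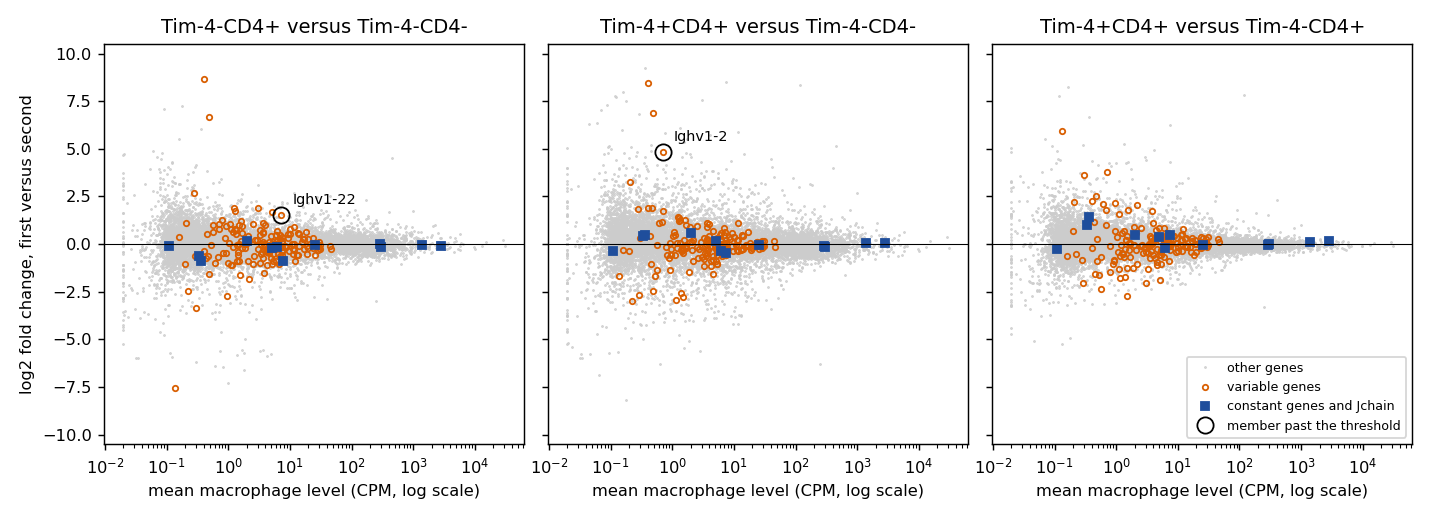
Log2 fold change of each tested gene between 2 macrophage subsets (y axis) against its mean macrophage level in CPM (x axis, log scale, levels under 0.02 CPM drawn at 0.02), with other genes in grey, variable genes as open circles, constant genes and Jchain as squares, and members past the threshold ringed. The abundant members lie close to 0 and the low variable genes scatter widely, with larger values at low levels that were not called, and only Ighv1-22 and Ighv1-2 are ringed.

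Within each library, the chains kept a similar make-up. Per kb of exon, Igkc averaged 2608 CPM and Igha 1074 CPM over the macrophage libraries, followed by Ighm at 162, Jchain at 115 and Iglc1 at 56.8 CPM. The length used is that of all annotated exons of a gene together, so comparisons between genes per kb depend on the annotation. Igha formed 79.8 to 90.2% of heavy chain constant reads per kb in macrophages and 0.316 to 0.534% in monocytes. Ighm formed 9.51 to 19.7% in macrophages. Among the class-switched regions, Igha made up 99.2 to 99.9%, leaving less than 1% to all IgG classes. Igkc formed 96.2 to 98.6% of light chain constant reads per kb, with lambda as the rest. While Igha itself varied from 1703 to 4667 CPM, the ratio of Igkc to Igha per kb stayed between 2.22 and 2.67 in the 12 libraries, and the ratio of Jchain to Igha per kb between 0.0796 and 0.135. The Igkc ratio thus varied 1.20-fold over the libraries. Lambda varied more, and Iglc1 moved with Iglv1: both were highest in Tim-4-CD4- replicate 3 (47.7 and 47.2 CPM) and lowest in Tim-4-CD4- replicate 4 (9.03 and 7.40 CPM), which is a description of 12 libraries. Iglv2 (0.03 to 2.39 CPM) and Iglv3 (0.18 to 3.13 CPM) were low.

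Each macrophage library drew on many variable genes. 63 to 85 Ighv genes and 57 to 72 Igkv genes had at least 10 counts, out of totals of 16859 to 85700 Ighv and 17800 to 84972 Igkv counts. The inverse Simpson number, which gives how many equally frequent genes would be as diverse, was 25.3 to 34.7 for Ighv and 19.2 to 32.1 for Igkv. The top gene of a library held 6.43 to 10.9% of its Ighv counts or 6.23 to 15.3% of its Igkv counts, and 10 to 13 Ighv and 8 to 12 Igkv genes together held 50%. No subset stood apart, with mean inverse Simpson numbers for Ighv of 29.6 ± 1.8 in Tim-4-CD4- macrophages, 32.5 ± 1.7 in the Tim-4-CD4+ subset and 29.8 ± 3.6 in the Tim-4+CD4+ subset (SD, n = 4 each), whose ranges overlap. These shares are of counts not divided by gene length, and the totals cover counting error only, since reads of 1 abundant clone are not independent of each other.

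Ighv1-26 held 5.23 to 10.9% of Ighv counts and was the top Ighv gene in 9 of 12 libraries, with Ighv3-6 first in 2 and Ighv1-39 in 1. Its share varied only 2.09-fold, less than that of any other Ighv gene that reached 1% in a library. Ighv3-6 (3.09 to 7.47%), Ighv1-39 (1.33 to 8.81%), Ighv1-19 (2.15 to 7.18%), Ighv1-55 (2.14 to 5.51%) and Ighv2-2 (0.21 to 5.81%) came next by mean level. Igkv6-23 held 4.76 to 15.3% of Igkv counts and was first in 6 libraries. Igkv6-15 (3.92 to 7.83%), Igkv1-110 (3.47 to 9.87%), Igkv10-96 (3.60 to 7.17%), Igkv6-32 (2.34 to 7.59%) and Igkv1-117 (2.14 to 8.19%) followed, and Igkv4-53 was first in Tim-4+CD4+ replicate 4 at 6.75%. By family, the 58 genes of Ighv1 held 57.2% of Ighv counts on average and 53.7% of the Ighv genes in the table, whereas the 8 genes of Igkv6 held 24.2% of Igkv counts and 8.42% of the Igkv genes.

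Beside these genes, most variable genes that reached 1% in a library swung widely from library to library. Of 62 Ighv genes that reached 1% of counts in some library, 41 varied at least 10-fold between their highest and lowest library and 12 had no count in at least 1. Of 50 such Igkv genes, 28 varied at least 10-fold and 9 had no count in at least 1. Ighv2-6, chosen after its values were seen, held 4.43% of Ighv counts in Tim-4-CD4- replicate 1 and had 0 of 58380 Ighv counts in Tim-4+CD4+ replicate 2, which allows a share of up to 0.00514%.

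**Figure D3:**
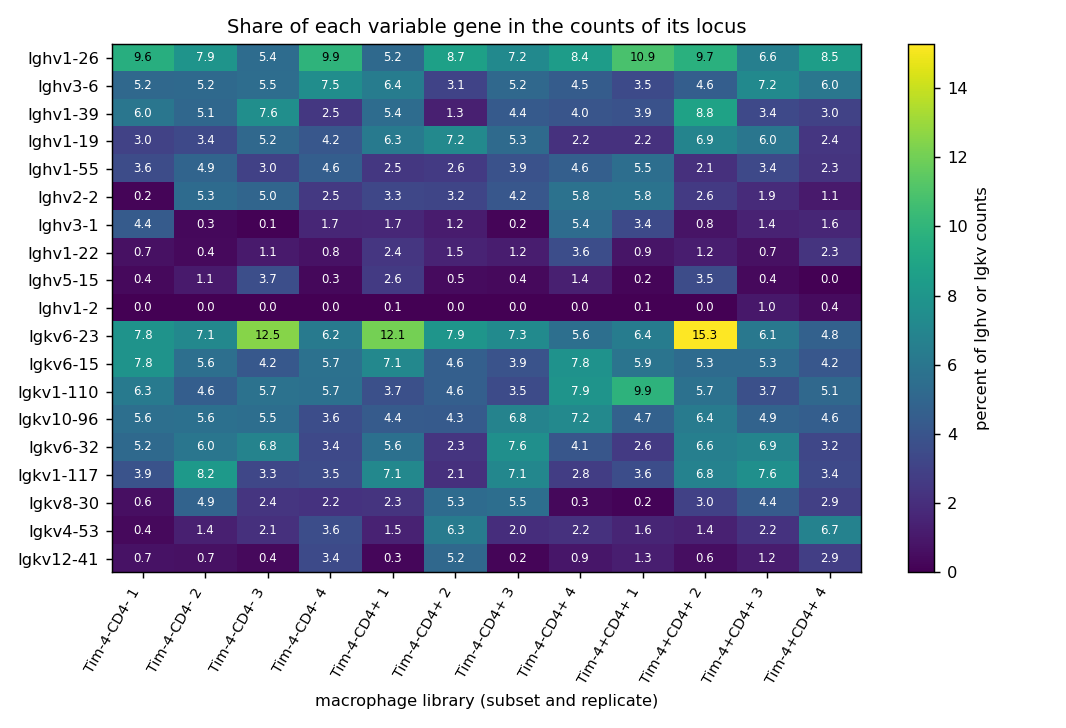
Share of each of 19 variable genes in the Ighv or Igkv counts of its library, in percent (colour and number), for the 12 macrophage libraries in columns. Ighv1-26 stays between 5.23 and 10.9% throughout, whereas Igkv8-30 ranges from 0.16 to 5.49% and Ighv3-1 from 0.08 to 5.39%.

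The swings were shared across subsets, however, by particular libraries. The overlap of 2 libraries was taken as the sum over genes of the smaller of their 2 shares, so that identical usage gives 100%. For each library, the library with the largest overlap in each of the other subsets was the same by Ighv and by Igkv genes, in all 24 such choices. The choices were mutual, and they joined the 12 libraries into 4 sets of 3 with 1 library of each subset. The first set was Tim-4-CD4- replicate 1, Tim-4-CD4+ replicate 4 and Tim-4+CD4+ replicate 1, with overlaps of 70.8 to 80.1% by Ighv and 77.6 to 81.1% by Igkv. The second was Tim-4-CD4- replicate 2, Tim-4-CD4+ replicate 3 and Tim-4+CD4+ replicate 3 (76.6 to 80.6% and 84.1 to 85.1%). The third was Tim-4-CD4- replicate 3, Tim-4-CD4+ replicate 1 and Tim-4+CD4+ replicate 2 (73.9 to 78.3% and 79.1 to 79.9%), and the last was Tim-4-CD4- replicate 4, Tim-4-CD4+ replicate 2 and Tim-4+CD4+ replicate 4 (71.1 to 75.1% and 75.9 to 77.6%). All other pairs of libraries overlapped by 58.1 to 71.2% by Ighv and 64.0 to 73.0% by Igkv, so that the ranges inside and outside the sets met for Ighv and lay apart for Igkv. Pairs of libraries of the same subset were among these lower values, at 59.0 to 69.7% and 64.0 to 72.4%. The sets were found from these overlaps, so the difference between pairs inside and outside them is a description without a test.

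Single genes show the pattern. The following 4 were chosen after their values were seen. Ighv3-1 held 4.37, 5.39 and 3.43% of Ighv counts in the 3 libraries of the first set and at most 1.72% in any other. Igkv8-30 held 0.60, 0.33 and 0.16% of Igkv counts in the same 3 libraries and at least 2.21% elsewhere. In these 3 libraries, then, 1 gene was high and another low across all subsets. Ighv5-15 held 3.65, 2.62 and 3.54% in the third set, in the order named above, and at most 1.36% in the other libraries. Igkv12-41 held 3.42, 5.16 and 2.86% in the last set and at most 1.30% in the others.

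Genes outside the immunoglobulin loci gave these sets in part. Over 15625 tested genes that are not members, deviations from the subset means were correlated between libraries of different subsets, and the library of highest correlation was the one of highest Ighv overlap in 20 of 24 choices. The other 4 choices all involved Tim-4+CD4+ replicate 1, which correlated at r = 0.0097 and 0.019 with the libraries of its own set and at 0.109 with Tim-4-CD4+ replicate 3. 10 of the 12 highest of 48 correlations were between libraries of 1 set, although the values were low (r = 0.0097 to 0.186 within the sets, and -0.145 to 0.109 in other pairs between subsets). These correlations are over genes, which are not independent, and share library depth and composition. The series' description places the sorting of the macrophage subsets on 4 occasions with pooled mice. The labels do not say which libraries share an occasion. The replicate numbers of the titles unite none of the 4 sets, and those of the sample descriptions, which number the Tim-4-CD4+ libraries differently, unite the last set only. Whether the sets are the sorting occasions was not tested.

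**Figure D4:**
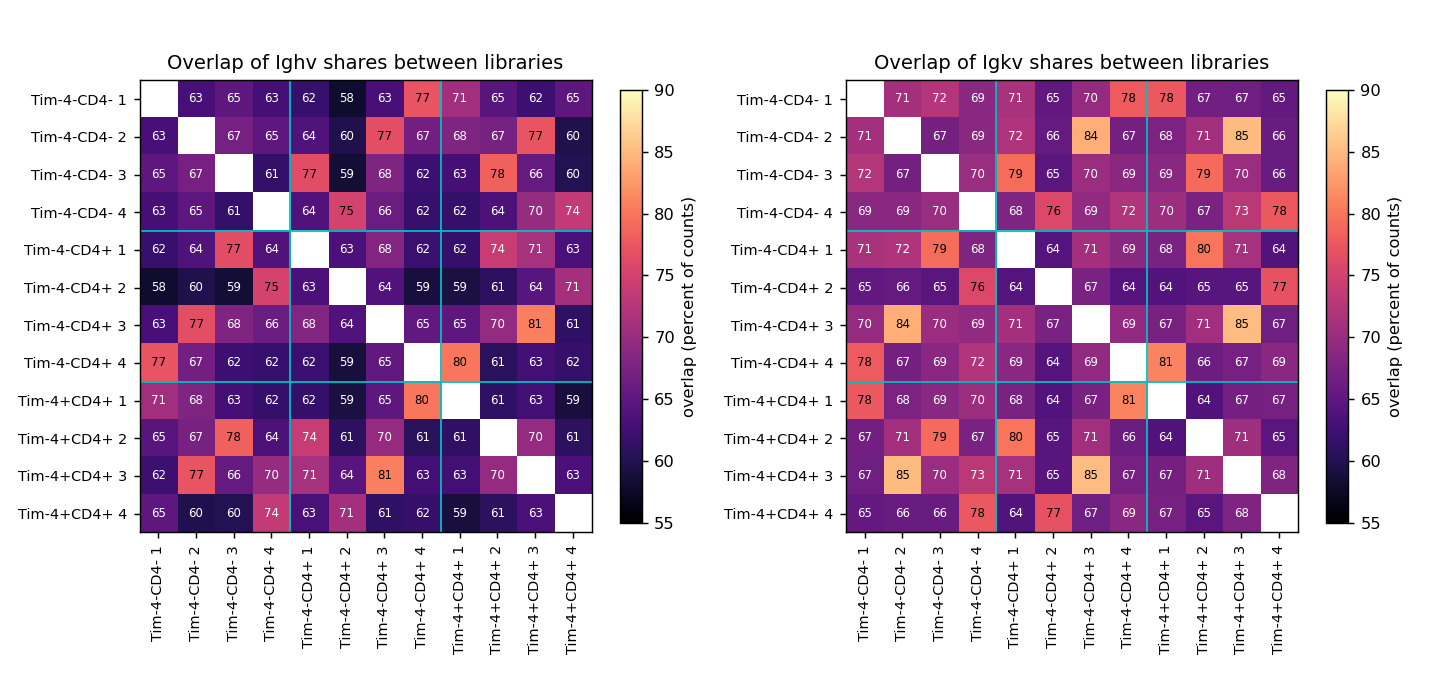
Overlap of variable gene shares between each pair of the 12 macrophage libraries, in percent of counts, for Ighv (left) and Igkv (right), with lines between the subsets. Each number is the overlap of a pair, and each library has 1 closest partner in each other subset, at 70.8 to 80.6% for Ighv and 75.9 to 85.1% for Igkv, above its overlaps within its own subset.

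The levels of some B cell markers were lowest in 1 of the sets. Cr2, the complement receptor of mature B cells, was at 0.08, 0.03 and 0.02 CPM in Tim-4-CD4- replicate 2, Tim-4-CD4+ replicate 3 and Tim-4+CD4+ replicate 3, its 3 lowest macrophage values. Ms4a1, Pax5 and Fcer2a also had their 3 lowest macrophage values in these libraries. Igha was at 3472, 3759 and 2995 CPM in the same 3 libraries, among the higher values. This observation was made after the values were seen, and its relation to the variable gene shares was not tested.

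Other genes of the immunoglobulin pathway were read from lists. Of 15 genes for the assembly of immunoglobulin genes and for signalling from the B cell receptor, 10 were in the table. Against monocytes, Cd79a, Cd79b, Blnk, Ung and Vpreb3 were called higher and Btk and Lyn lower in each macrophage subset. Vpreb3 was at 0 in all monocyte libraries and passed the filter through macrophages alone. Blnk, an adaptor of the B cell receptor that myeloid cells also use, was at 9.35 to 25.2 CPM in macrophages, and together with Btk it was called lower in Tim-4+CD4+ than in Tim-4-CD4- macrophages (log2 fold change -0.75 ± 0.16 and -0.22 ± 0.06 SE). The other comparisons between subsets called none of these 10. The share of all tested genes was 23.1% in the comparison that called Blnk and Btk. It was 10.1% between the Tim-4- subsets and 3.41% between the CD4+ subsets. Against monocytes, 37.3 to 39.5% of all tested genes were called higher and 28.1 to 31.3% lower, depending on the subset.

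Of 22 tested genes for immunoglobulin folding, secretion and transport, 13 were called higher in each macrophage subset than in monocytes, and 5 were called lower in the Tim-4-CD4- subset, 6 in the Tim-4-CD4+ subset and 5 in the Tim-4+CD4+ subset. The shares of all genes called lower in these comparisons were 28.1%, 30.7% and 31.3%, and those called higher 37.3%, 39.1% and 39.5%. Hspa5, the chaperone BiP, which binds unassembled heavy chains, was at 2892 to 5418 CPM in macrophages against 314 to 448 CPM in monocytes. Pigr, the epithelial receptor that carries IgA to the gut lumen, was at 0.47 to 2.98 CPM against 0.03 CPM or less. Between subsets only Ero1lb, an oxidase of the secretory pathway, was called, lower in Tim-4+CD4+ macrophages at a log2 fold change of -0.32 ± 0.09 SE over the Tim-4-CD4- subset and -0.36 ± 0.09 SE over the Tim-4-CD4+ subset. The shares of all genes called between subsets, 10.1%, 23.1% and 3.41% as ordered above, apply to this list and to the markers below. Of the plasma cell markers, Prdm1 was called higher in both CD4+ subsets than in Tim-4-CD4- macrophages, Tnfrsf17 higher and Irf4 and Tnfrsf13b lower in Tim-4+CD4+ over Tim-4-CD4- macrophages, and Tnfrsf13b lower in Tim-4+CD4+ macrophages over the Tim-4-CD4+ subset as well. Tnfrsf17 was at 1.17, 1.42, 1.66 and 1.29 CPM in Tim-4-CD4- and 4.50, 1.95, 3.18 and 2.02 CPM in Tim-4+CD4+ macrophages, without overlap. Cd22 was the B cell marker called between subsets, at a log2 fold change of 1.03 ± 0.10 SE in Tim-4-CD4+ and 1.22 ± 0.10 SE in Tim-4+CD4+ against Tim-4-CD4- macrophages. Among the promoters of the reference table, the octamer ATGCAAAT, an element of immunoglobulin promoters, was found on either strand in 570 of 32851 (1.74%) and not in that of Jchain, the only member listed.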

How the data were processed

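RNA sequencing of 15 libraries from C57BL/6 mice was analyzed: 3 of Ly6Chi blood monocytes and 4 of each of 3 small intestinal macrophage subsets, grouped by their titles. The authors prepared stranded mRNA libraries, read them as 65-base pairs, used Trimmomatic 0.36 for trimming and STAR 2.4.2 for alignment to the GRCm38.p4 assembly, and kept uniquely mapped reads, which HTSeq 0.6.1p1 assigned to genes of GENCODE vM11 as counts. The deposited counts were used as they are. 15 further columns, holding counts scaled by size factors, were not used. Total counts were 39388763 to 151510641 per library. As only unique reads were counted, variable genes with close relatives are measured in part.

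Genes were filtered with filterByExpr, scaled by TMM and tested with edgeR 4.0.16 in R 4.3.3 in 1 quasi-likelihood fit over all libraries, with Benjamini-Hochberg adjustment within each of 6 comparisons at 0.05. The fit was tested on simulated data. A library is the replicate, and p-values measure the spread between libraries of a population. Macrophage libraries of different subsets may come from the same pool of mice, and the labels do not say which. The tests between subsets treat them as unpaired. Positions, lengths and sequences were taken from GENCODE M21 (GRCm38), in which 19421 of 19456 gene IDs were found. Exact overlaps of 65-base stretches between transcripts gave the unique part of a gene for single reads. Constant genes, Jchain, Iglv genes, the 6 Ighv and 6 Igkv genes of highest mean, the top gene of each library and those called between subsets were named by rule. The members and the lists were chosen with earlier results of these data known. Alternatives were DESeq2 1.42.0, other scalings and filters, only the populations compared, replicate blocks, and leaving out each library. Processing used Python 3.11.15 with pandas 2.3.3, and figures matplotlib 3.10.9.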

Additional observations from a re-analysis of the deposited data

Results flagged for a closer look

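16 of 114 groups of 4 macrophage libraries held a value far from the other 3 by Dixon's criterion, of which chance alone would give 1 in 20, or about 5.7. Some groups share libraries and genes, so these are not independent. The levels so marked were Ighg2b at 25.76 CPM and Iglv3 at 2.76 CPM in Tim-4-CD4- replicate 3, Iglv2 at 2.391 CPM and Ighg3 at 0.4381 CPM in Tim-4-CD4- replicate 1, Iglv3 at 3.133 CPM in Tim-4-CD4+ replicate 1, and Iglv2 at 0.03216 CPM in Tim-4+CD4+ replicate 3, the last one lower than its group.

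Of the Ighv shares, those of Ighv3-6 in Tim-4-CD4- replicate 4 (7.474%), Ighv1-2 in Tim-4-CD4+ replicate 1 (0.05114%) and Ighv1-39 in Tim-4+CD4+ replicate 2 (8.806%) stood apart. Of the Igkv shares, those of Igkv1-117 in Tim-4-CD4- replicate 2 (8.188%), Igkv10-96 in Tim-4-CD4- replicate 4 (3.601%) and in Tim-4+CD4+ replicate 2 (6.366%), Igkv6-23 in Tim-4+CD4+ replicate 2 (15.27%), and Igkv4-53 in Tim-4-CD4+ replicate 2 (6.331%) and Tim-4+CD4+ replicate 4 (6.747%) did so, and the top Igkv gene of Tim-4-CD4+ replicate 1 held 12.07%. The cause was not tested.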

How the results depend on the processing

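Igha, Igkc, Jchain and Ighd kept their direction and their call against monocytes under each alternative tried. The number of members called between subsets was small and unsteady. For Tim-4-CD4+ over Tim-4-CD4- macrophages, where 1 was called, DESeq2 gave 2, a fit of only these populations 2, and a replicate block by description numbers 3. Leaving out single libraries gave 0 to 3. The number was 0 for the omission of Tim-4-CD4+ replicate 4, 2 when this was Tim-4-CD4- replicate 2 or Tim-4-CD4+ replicate 1 or 3, and 3 when it was Tim-4-CD4- replicate 4 or Tim-4-CD4+ replicate 2. For Tim-4+CD4+ over Tim-4-CD4- macrophages, where 1 was called, a filter of at least 1 count gave 2, a filter at a mean of 1 CPM gave 0, a fit of only these populations 0, and the block by description numbers 6. Leaving out single libraries gave 1 to 4. The number was 2 when Tim-4-CD4+ replicate 3 or Tim-4+CD4+ replicate 2 or 4 was missing, 3 when this was Tim-4-CD4- replicate 2 or Tim-4+CD4+ replicate 1 or 3, and 4 when it was Tim-4-CD4- replicate 4. For Tim-4+CD4+ over Tim-4-CD4+ macrophages, where 0 were called, DESeq2 gave 1, and leaving out single libraries 0 to 2. The number was 1 when Tim-4-CD4+ replicate 1, 2 or 3 or Tim-4+CD4+ replicate 1 was missing, and 2 when this was Tim-4+CD4+ replicate 2. The cause was not tested.

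Small log2 fold changes between subsets, none of them called, changed sign. For Tim-4+CD4+ over Tim-4-CD4- macrophages, Igha was -0.039 and Igkc -0.028 under the description block, Iglc1 0.011 with upper-quartile scaling, 0.015 under the title block and 0.072 under the description block, Ighg2c -0.072 and Ighg3 0.027 under the title block. For Tim-4-CD4+ over Tim-4-CD4- macrophages, Iglc1 was 0.11 under the title block and 0.13 under the description block, and Ighg3 0.032 under the description block. For Tim-4+CD4+ over Tim-4-CD4+ macrophages, Ighm was 0.028 with upper-quartile scaling and 0.0076 with a mean of at least 1 CPM, Iglc1 0.017 with upper-quartile scaling, and Ighg3 0.10 under the title block. Leaving out single libraries, the ranges were, for Tim-4-CD4+ over Tim-4-CD4- macrophages, -0.33 to 0.051 for Igha, -0.21 to 0.10 for Igkc, -0.14 to 0.10 for Jchain, -1.21 to 0.15 for Ighg2b, -0.50 to 0.32 for Ighg3, -0.30 to 0.43 for Iglc1, -0.39 to 0.026 for Iglc2 and -0.0037 to 0.45 for Iglc3. For Tim-4+CD4+ over Tim-4-CD4- macrophages they were -0.25 to 0.22 for Igha, -0.20 to 0.21 for Igkc, -0.21 to 0.063 for Jchain, -0.072 to 0.33 for Ighd, -0.12 to 0.97 for Ighg1, -0.87 to 0.61 for Ighg2b, -0.50 to 0.88 for Ighg2c, -0.77 to 0.024 for Ighg3 and -0.32 to 0.41 for Iglc1. For Tim-4+CD4+ over Tim-4-CD4+ macrophages they were -0.14 to 0.38 for Igha, -0.15 to 0.26 for Igkc, -0.19 to 0.086 for Jchain, -0.67 to 0.10 for Ighg3, -0.15 to 0.066 for Ighm, -0.25 to 0.19 for Iglc1 and -0.36 to 0.018 for Iglc2.

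The summed level in monocytes was 264 CPM, 283 CPM both with raw library totals and with library sizes taken without the members. With counts not divided by length, Igha was 0.586% of heavy chain constant counts in monocytes, 89.1% in the Tim-4-CD4- subset and 90.1% in the Tim-4+CD4+ subset, and Ighm was 99.3%, 10.4% and 9.41%. Replicate numbers did not pair the libraries. Correlations of deviations between libraries of the same title number ran from -0.107 to 0.0893, with 0 of 12 over 0.1, and those of the same description number from -0.0796 to 0.134, with 2 of 12 over 0.1, and not every library correlated best with its own number. Under the block by title numbers, Ighv1-2 in Tim-4+CD4+ over Tim-4-CD4- macrophages was 3.90 with an adjusted p of 0.055. Depth limits the low variable genes and the IgG classes other than Ighg2b, which had few or no counts in some macrophage libraries, and monocytes held too few variable counts for shares.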
